A study of Mus musculus with 38 samples.

Results

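Intestinal organoids with the genes of both PPARα and PPARδ targeted were compared with wild-type organoids, when both had the PPARδ agonist GW501516 (GW) in the medium. Libraries were picked by the treatment and genotype that their column names give, 5 of the double knockout (DA) and 5 of the wild type (WT), which are 10 of the 38 samples of the series. The DA samples carried the genotype Ppard-fl/fl; Ppara-null and the WT samples were labelled wildtype, all on the strain C57BL6. The cultures came from mouse intestinal crypts, were embedded in 65% matrigel and had 1 uM GW in 0.1% DMSO through 8 days and 2 passages. Vehicle cultures had 0.1% DMSO alone, with 4 DA and 5 WT libraries (Veh_DA and Veh_WT). Libraries of the Ppara-null single knockout (A, 5 under GW and 5 in vehicle) and of the Ppard-fl/fl single knockout (D, 5 in vehicle) stood beside them. A floxed allele is deleted only where a recombinase acts, and the labels name no recombinase, age or tissue segment. They do not say either whether the libraries of a group came from separate animals or cultures, so the p-values reflect library-to-library spread and nothing wider.

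PPARα and PPARδ are nuclear receptors for fatty acids. Each pairs with the retinoid receptor RXR, sits on direct repeats of a hexamer near its target genes, and raises transcription when a fatty acid or a drug fills its pocket. In the intestine the targets carry fatty acids into the cell, activate them, and oxidise them in mitochondria and peroxisomes. The comparison asks which genes differ in level when the agonist is present and both receptors are targeted, and the vehicle pair shows which of those differences were also there without it.

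Expression was measured from polyadenylated RNA as 3′ digital gene expression, which counts tags from the ends of transcripts. Total counts ran from 395033 to 512122 in the DA libraries and from 405302 to 506644 in the WT libraries under GW, and 10083 to 10866 genes had a count in each. Levels are given as CPM, counts scaled to a library sum of 1e+06, and genes with few CPM rest on few counts. Counts of Y-linked genes exceeded those of Xist in 3 of 5 libraries of each group, replicates 1, 4 and 5. Each group also had 3 libraries numbered 1 to 36 and 2 numbered 37 to 60, and these number ranges are called runs here. The cut between them was set for the fits, and the column names give no batch or date for it. Replicates 4 and 5 are those numbered 37 to 60, and replicate 1 has a suffix 2 that no label explains. Library sex, run and suffix therefore overlap and cannot be fully told apart. Markers of Paneth, goblet, enteroendocrine, enterocyte and stem cells were present, whereas 10 tuft cell markers had 0 counts in DA and 4 in WT in all. Immune markers had 12 and 11 counts in DA and WT, among which Ptprc, Cd3e and Cd79a were at 0 in both, and stromal markers had 65 and 55, with Col1a1, Col3a1 and Pdgfra at 0.

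The targeted receptor genes were examined first. Ppara (mm10 chromosome 15, 85734983 to 85802819) had 4.17, 2.53, 4.14, 6.23 and 1.95 CPM in the DA libraries, against 22.2, 11.2, 4.71, 22.2 and 21.7 CPM in the WT libraries. It was lower in each DA library than in 4 of the 5 WT libraries, and WT replicate 3, with 4.71 CPM, lay inside the DA range. DA minus WT was -2.06 ± 0.51 in log2 units (SE), with an adjusted p = 0.0371 by the quasi-likelihood test of edgeR, adjusted after Benjamini-Hochberg over 4691 genes. Of the 10 fits that each left out 1 library, only that without WT replicate 3 kept the call, and the others had adjusted p up to 0.117. Ppard (chromosome 17, 28232700 to 28301474) had 7 counts over the DA libraries and 7 over the WT libraries, 1 to 2 in each, so its deletion could not be checked from these tags. Pparg, which encodes the related PPARγ, had 28.1 ± 9.11 CPM in DA and 23.05 ± 5.19 CPM in WT (SD, n = 5 each; adjusted p = 0.882).

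Under GW, 41 of 4691 genes tested differed between DA and WT (0.874%), of which 28 were lower (0.597%) and 13 higher (0.277%) in DA. Among the genes that fell were the fatty acid binding proteins Fabp1 and Fabp2, the thioesterase Acot1, the oxidation enzymes Eci2 and Hadhb, the peroxisomal proteins Crot and Abcd3, and the lipase regulator Angptl4. Of the 13 genes that rose, 6 are annotated as pseudogenes, a count given without the share of pseudogenes among all genes tested. In 19 of the 28 lower genes every DA library lay below every WT library, and in 9 of the 13 higher genes every DA library lay above. Over all genes tested, called or not, libraries stood apart in this way in 0.789% (below) and 0.618% (above). These are bulk cultures, in which fewer cells of a type and less RNA per cell cannot be told apart. Of the 41 genes, 17 passed in all 10 fits that left out 1 library, 12 lower and 5 higher, and calls described as kept or lost refer to these 10 fits. The count of 41 fell to 27, 24 and 21 without DA replicate 1, 3 and 4, and to 20, 25 and 21 without WT replicate 2, 4 and 5. At an unadjusted p under 0.05 there were 419 genes.

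**Figure D1:**
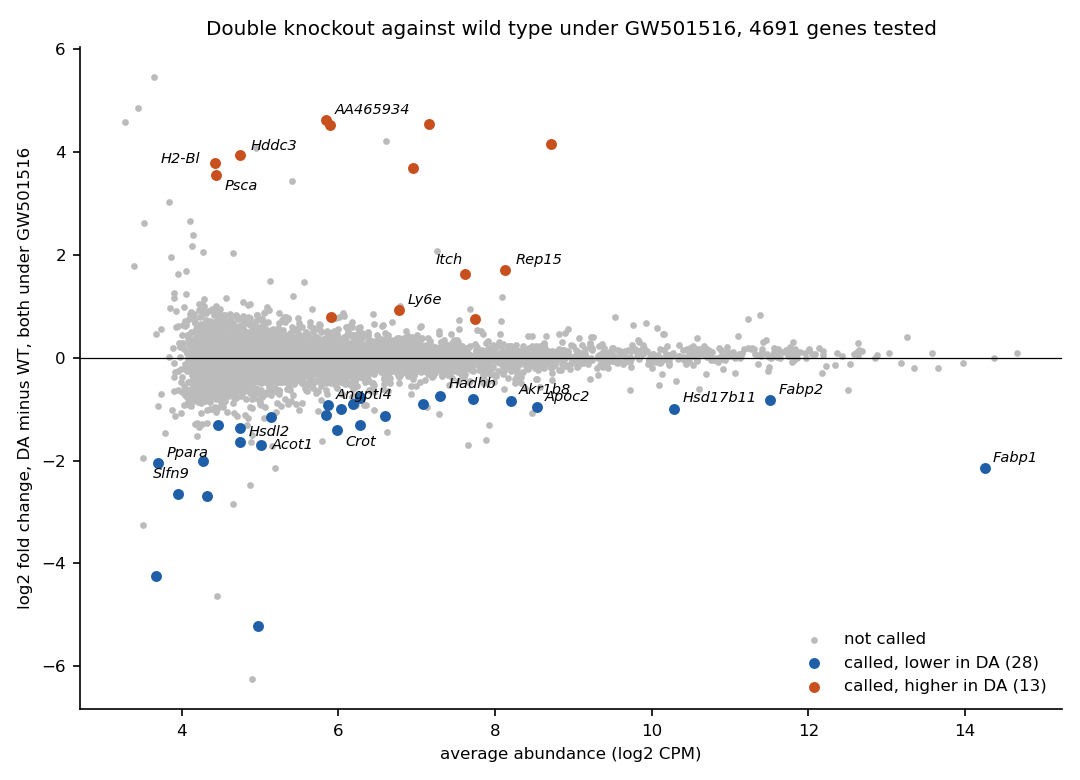
Log2 fold change of DA over WT, both under GW, on the vertical axis against average abundance in log2 CPM on the horizontal axis, 1 point per gene for 4691 genes. Blue points are the 28 genes called lower in DA and orange points the 13 called higher (adjusted p under 0.05), with some names given. Most points lie near 0, Fabp1 stands apart at high abundance with -2.14, and most genes called higher with over 3 are of low to middle abundance.

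Fabp1 (mm10 chromosome 6, 71199827 to 71205023) encodes the fatty acid binding protein of liver and intestine. It had 7949, 14642, 9623, 6155 and 5563 CPM in the DA libraries under GW, against 30368, 59402, 29193, 26249.6 and 46952 CPM in the WT libraries under GW. Every DA library was below every WT library, and the log2 fold change in DA was -2.14 ± 0.29 (SE; adjusted p = 2.09e-05), 4.42-fold lower. In vehicle Fabp1 had 9017 ± 2902 CPM in DA (SD, n = 4) and 16578 ± 2352 CPM in WT (SD, n = 5), a log2 fold change of -0.94 ± 0.30 that did not pass (adjusted p = 0.362). The difference between both contrasts was -1.21 ± 0.40 (adjusted p = 1).

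The RefSeq promoter windows (GRCm38.p6, 250 bases before to 50 after the start) were searched for the letters AGGNCANAGGNCA, the spaced repeat that PPAR and RXR are known to bind, on both strands (TGNCCTNTGNCCT on the other). The letters occurred in 125 of 32851 windows (0.381%), and in those of 2 of the 26 called genes that had a window, Fabp1 and Apoc2. Both windows are shown because they hold the match, which is in capitals. That of Fabp1 is chr6:71199629-71199928 on the plus strand, with TGACCTATGGCCT at bases 67 to 55 before the start, and that of Apoc2 is chr7:19677892-19678191 on the minus strand, with AGGCCAGAGGTCA at bases 122 to 110 before it. A match of letters is a description and not a bound site, and the windows of the other called genes lack only these letters in this stretch.
Fabp1: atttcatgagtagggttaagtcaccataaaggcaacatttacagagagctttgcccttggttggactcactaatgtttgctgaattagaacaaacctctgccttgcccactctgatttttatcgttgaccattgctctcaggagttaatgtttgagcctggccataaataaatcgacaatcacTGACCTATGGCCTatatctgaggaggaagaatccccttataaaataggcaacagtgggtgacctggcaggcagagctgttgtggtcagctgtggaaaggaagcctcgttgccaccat
Apoc2: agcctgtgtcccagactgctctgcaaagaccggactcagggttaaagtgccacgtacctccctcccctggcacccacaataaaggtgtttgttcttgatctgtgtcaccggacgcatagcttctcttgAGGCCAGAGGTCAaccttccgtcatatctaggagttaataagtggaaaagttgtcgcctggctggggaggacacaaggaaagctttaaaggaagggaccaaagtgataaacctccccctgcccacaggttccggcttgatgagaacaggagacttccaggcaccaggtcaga

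Of the known PPAR targets outside fatty acid oxidation, 10 were measured, 6 fell and 9 were lower, with a median log2 fold change of -0.95 in DA over WT under GW, against a median of -0.00 over all genes tested, of which 2331 were higher and 2360 lower. Over all genes tested 0.597% fell, which is the share to set beside the counts of this list and those below. All these lists were assembled with earlier results of these samples known, so their counts and directions are no independent evidence. Angptl4, a secreted inhibitor of lipoprotein lipase, had 50.02, 37.97, 64.1, 35.3 and 66.4 CPM in the DA libraries under GW, against 86.9, 123, 70.6, 98.7 and 96.7 CPM in the WT libraries under GW. The groups did not overlap, and the log2 fold change was -0.92 ± 0.21 (SE; adjusted p = 0.0198). Abhd6, which hydrolyses monoacylglycerol, had 62.5, 55.7, 39.3, 58.1 and 46.9 CPM in the DA libraries under GW, against 123, 152, 125, 133 and 105 CPM in the WT libraries under GW. The highest DA library was well under the lowest WT library, with a log2 fold change of -1.31 ± 0.19 (adjusted p = 6.24e-05). Hsd17b11, a dehydrogenase of lipid droplets, had 1205, 1189.8, 819, 876 and 1197 CPM in the DA libraries under GW, against 1644, 2756, 1556, 1532 and 2739.6 CPM in the WT libraries under GW. It too was lower in every DA library (-0.99 ± 0.18, adjusted p = 0.00205). Abhd6, Hsd17b11, Hsdl2, Aldh3a2 and Akr1b8 kept their call in all 10 fits with 1 library left out, whereas Angptl4 lost it without DA replicate 1, 2 or 4 or WT replicate 2 (adjusted p up to 0.105).

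Hsdl2, a peroxisomal dehydrogenase-like protein, had 14.9 ± 1.83 CPM in DA and 46.1 ± 13.5 CPM in WT (SD, n = 5 each), with -1.65 ± 0.33 in log2 fold change (SE; adjusted p = 0.00533). Aldh3a2, which oxidises fatty aldehydes, had 26.8 ± 4.002 CPM in DA and 59.4 ± 20.8 CPM in WT, with -1.14 ± 0.24 (adjusted p = 0.00725). No DA library reached the lowest WT library in either gene. Akr1b8, an aldo-keto reductase, had 273, 199.98, 316, 241 and 410.1 CPM in the DA libraries under GW, against 404, 457, 607, 553 and 511 CPM in the WT libraries under GW. DA replicate 5 was just above WT replicate 1 and the groups otherwise stood apart (-0.84 ± 0.16, adjusted p = 0.00426). Creb3l3, a transcription factor of lipid metabolism, had 47.05 ± 14.5 CPM in DA and 80.9 ± 37.1 CPM in WT, overlapped between groups and did not pass (-0.82 ± 0.28, adjusted p = 0.253).

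Genes of fatty acid uptake, binding and activation comprised 6 measured members, of which 2 fell, 5 were lower and the median log2 fold change was -0.38. Beside Fabp1 these were Fabp2, the intestinal binding protein, which had 2329.99, 2359, 2161, 2382 and 1909.7 CPM in the DA libraries under GW, against 3553, 4144, 3809.5, 3131 and 4838 CPM in the WT libraries under GW. Every DA library was lower (-0.83 ± 0.19, SE; adjusted p = 0.0245), and the call was kept in 4 of 10 fits, being lost without DA replicate 1, 3, 4 or 5 or WT replicate 2 or 5 (adjusted p up to 0.103). Fabp5, a binding protein of the same family, was the only higher member, with 109 ± 44.4 CPM in DA and 70.3 ± 33.7 CPM in WT, and did not pass (0.64 ± 0.27, adjusted p = 0.425). Among 4 acyl-CoA thioesterases 2 were higher and 2 lower, with a median log2 fold change of 0.07. The 1 that fell was Acot1, a cytosolic enzyme that frees fatty acids from coenzyme A. Acot1 (mm10 chromosome 12, 84009490 to 84018371) had 22.9, 25.3, 10.3, 16.6 and 25.4 CPM in the DA libraries under GW, against 44.4, 82.8, 37.7, 101 and 59.2 CPM in the WT libraries under GW. The groups did not overlap, and the change of -1.70 ± 0.30 (adjusted p = 0.00135) was 3.25-fold lower and kept in all 10 fits. Acot1 has near-identical neighbouring paralogs, between which the counting could split reads, so its level is uncertain.

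Mitochondrial oxidation removes carbon pairs from fatty acids after carnitine has carried them across the membrane. Of 18 measured genes of this pathway, 2 fell, 16 were lower and the median log2 fold change was -0.46, against -0.01 in vehicle. The share that fell over all genes tested was 0.597%. Eci2, an isomerase for unsaturated chains, had 77.1, 78.5, 70.3, 56.1 and 83.96 CPM in the DA libraries under GW, against 189.9, 163, 146, 116 and 174 CPM in the WT libraries under GW. Hadhb, the thiolase subunit of the trifunctional protein, had 110.5, 111, 132, 143 and 160.1 CPM in the DA libraries under GW, against 188, 219, 207, 225 and 251 CPM in the WT libraries under GW. In both genes all DA libraries were below all WT libraries, with log2 fold changes of -1.14 ± 0.17 (SE; adjusted p = 8.07e-05) and -0.75 ± 0.13 (adjusted p = 0.00135), and both were kept in all 10 fits. Hadha, the partner subunit, had 171, 177, 118, 212 and 135 CPM in the DA libraries under GW, against 240.4, 279.8, 122, 237 and 280.3 CPM in the WT libraries under GW. WT replicate 3 lay among the DA libraries and the other WT libraries above them, and Hadha passed only when that library was left out (-0.54 ± 0.19, adjusted p = 0.257 with it).

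Further genes of the pathway were lower in DA without passing. The carnitine carrier Slc25a20 had 36.3 ± 12.6 CPM in DA and 66.8 ± 15.2 CPM in WT (SD, n = 5 each), did not overlap between groups and had -0.89 ± 0.27 (SE; adjusted p = 0.158), whereas it passed with the run of library numbers, 1 to 36 or 37 to 60, as a block (-0.91, adjusted p = 0.0359). The chain-length-specific dehydrogenases Acadvl and Acadl had -0.63 ± 0.21 (adjusted p = 0.22) and -0.45 ± 0.21 (adjusted p = 0.517), and the thiolase Acaa2 had -0.48 ± 0.17 (adjusted p = 0.257). Cpt1a, the entry step of the pathway, had 25.7 ± 8.51 CPM in DA and 37.1 ± 14.5 CPM in WT, with broad overlap and -0.53 ± 0.27 (adjusted p = 0.592). Pdk4, which holds back glucose oxidation, had 0 counts over the DA libraries and 9 over the WT libraries. The ratio of DA over WT had an exact 95% interval of 0 to 0.491, which covers counting error only.

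Peroxisomes shorten very long chains and pass the products on as carnitine esters. Of 14 measured genes, 2 fell, 13 were lower and the median log2 fold change was -0.38, against -0.18 in vehicle. Crot, the carnitine octanoyltransferase that exports these products, had 47.9, 43.03, 39.3, 31.2 and 37.1 CPM in the DA libraries under GW, against 86.9, 121, 75.3, 76.5 and 152 CPM in the WT libraries under GW. The groups were apart, with -1.40 ± 0.21 (SE; adjusted p = 7.11e-05), and the call was kept in all 10 fits. Abcd3, a transporter of the peroxisomal membrane, had 70.9, 55.7, 55.8, 62.3 and 89.8 CPM in the DA libraries under GW, against 78.8, 149.99, 72.99, 131 and 134 CPM in the WT libraries under GW. WT replicates 1 and 3 lay within the DA range, and the change of -0.78 ± 0.19 (adjusted p = 0.028) was kept only without DA replicate 5 or WT replicate 1 or 3 (adjusted p up to 0.167 without another library). Pxmp4, a membrane protein, had -1.18 ± 0.31 and missed the threshold (adjusted p = 0.0566). It passed without WT replicate 1, with the library-number run as a block (adjusted p = 0.0428), without a filter on low counts (adjusted p = 0.0137), without the columns with the suffix 2 (adjusted p = 0.018) and with a term for library sex (adjusted p = 0.0343). Ech1, a dienoyl-CoA isomerase, had 211 ± 28.8 CPM in DA and 276 ± 31.8 CPM in WT (-0.41 ± 0.12, adjusted p = 0.128), and Hsd17b4, the bifunctional enzyme, had -0.65 ± 0.23 (adjusted p = 0.304) and passed without WT replicate 3.

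**Figure D2:**
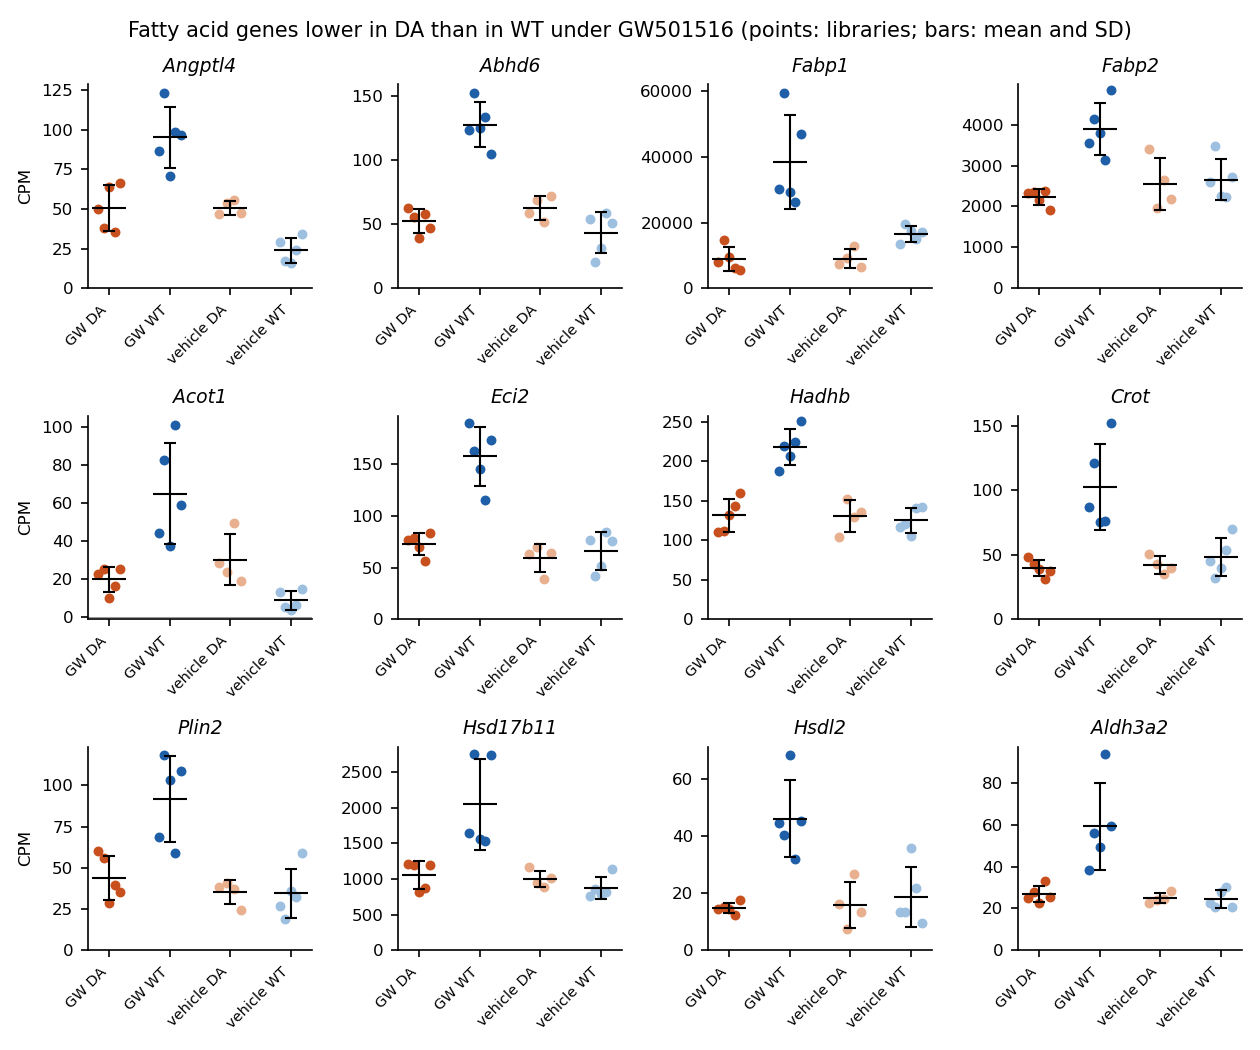
CPM per library for 12 fatty acid genes called lower in DA under GW, with 1 panel per gene and the groups GW DA, GW WT, vehicle DA and vehicle WT on the horizontal axis. Points are libraries and bars the mean and SD. The GW WT group has the highest mean in each panel, and for Acot1 and Angptl4 the vehicle DA libraries lie above the vehicle WT libraries.

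Of 8 measured genes of lipid droplets and triglyceride turnover, Plin2, a coat protein of the droplet, was the 1 that fell. It had 60.4, 55.7, 28.9, 39.5 and 35.1 CPM in the DA libraries under GW, against 68.7, 119, 104, 59.2 and 109 CPM in the WT libraries under GW. DA replicate 1 exceeded WT replicate 4, and the change of -1.11 ± 0.26 (SE; adjusted p = 0.0245) was lost without DA replicate 3, 4 or 5 or WT replicate 2, 3 or 5 (adjusted p up to 0.109). All 8 measured genes of chylomicron and lipoprotein assembly were lower, with a median of -0.36, and 1 fell. That was Apoc2, the activator of lipoprotein lipase whose promoter window holds the match, with 261, 266, 339, 209.7 and 318 CPM in the DA libraries under GW, against 329, 573, 591, 553 and 643 CPM in the WT libraries under GW. WT replicate 1 lay in the DA range, and the call (-0.97 ± 0.24, adjusted p = 0.0344) was kept only without DA replicate 3 or WT replicate 1 (adjusted p up to 0.143 otherwise). Apoa4, an apolipoprotein of chylomicrons, had 104 ± 38.9 CPM in DA and 217 ± 57.8 CPM in WT and missed the threshold (-1.09 ± 0.29, adjusted p = 0.0566). It passed without DA replicate 1 or WT replicate 3 and in 7 of 11 other settings, among them the library-number run as a block (adjusted p = 0.0359) and DESeq2 (adjusted p = 0.0301). Mttp, which loads lipid onto these particles, had -0.60 ± 0.19 (adjusted p = 0.207), and passed in libraries 37 to 60 alone (-0.996, adjusted p = 0.0149).

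No gene of fatty acid synthesis passed among 9 measured, of which 6 were lower (median -0.15). Me1, which supplies NADPH, had 21.2 ± 10.2 CPM in DA and 51.9 ± 27.4 CPM in WT (-1.31 ± 0.37, SE; adjusted p = 0.0897), passing without DA replicate 2, without a filter on low counts (adjusted p = 0.00405) or with a term for library sex (adjusted p = 0.0497). The desaturase Scd1 had -0.66 ± 0.24 (adjusted p = 0.319) and passed without DA replicate 2 or in libraries 37 to 60 alone (-1.24, adjusted p = 0.032). In cholesterol synthesis 0 of 24 measured genes passed and the median was -0.03, and in glycolysis 0 of 11 with -0.04. Among 71 nuclear genes of the respiratory chain and 22 of the citric acid cycle, 0 passed, with a median of -0.01 in each. These counts of 0 are by edgeR's adjusted p, by which 0.874% of the 4691 genes were called. In lists of this size 0 calls is therefore near the background.

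**Figure D3:**
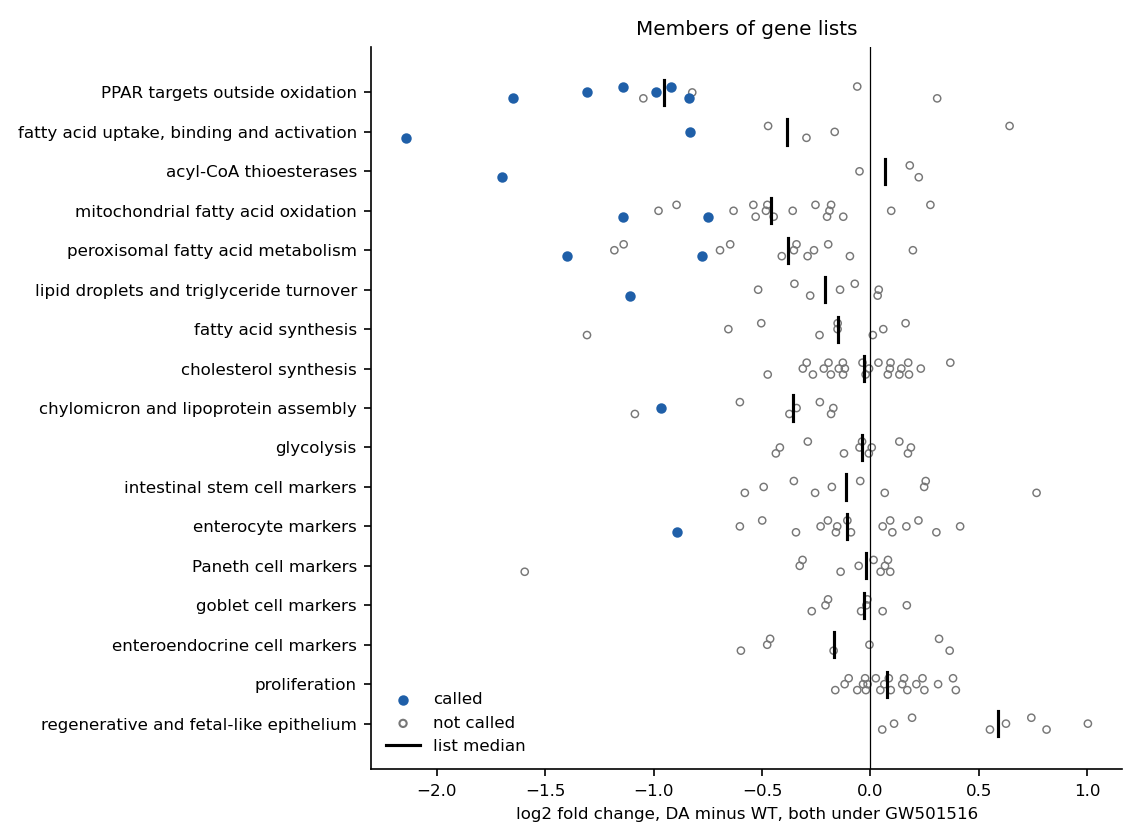
Log2 fold change of DA over WT under GW for the measured members of the gene lists, 1 row per list. Filled points passed at an adjusted p under 0.05, open points did not, and the bar is the list's median. Members of the upper rows on fatty acid handling, apart from the acyl-CoA thioesterases, lie mostly to the left of 0. Those of the thioesterases, synthesis, glycolysis, proliferation and the cell types lie on both sides.

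Other genes that fell included Rbp2 and Retsat. Rbp2, the retinol binding protein of enterocytes, had 98.1 ± 22.4 CPM in DA and 179 ± 48.8 CPM in WT (SD, n = 5 each), with -0.89 ± 0.23 (SE; adjusted p = 0.0461). Retsat, a retinol saturase, had 49.04 ± 9.58 CPM in DA and 95.98 ± 37.96 CPM in WT, with -0.995 ± 0.24 (adjusted p = 0.0295). Both overlapped between groups. Rbp2 was kept only without DA replicate 3 or WT replicate 1 or 4, and Retsat only without DA replicate 2 or WT replicate 1 or 3 (adjusted p up to 0.187 and 0.15 otherwise). Rbp2 was the only one of 17 measured enterocyte markers that passed, and 7 of the 17 were higher.

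Slfn9, of the Schlafen family, had 12.5, 5.06, 6.203, 6.23 and 3.91 CPM in the DA libraries under GW, against 34.3, 22.4, 21.2, 39.5 and 21.7 CPM in the WT libraries under GW. It was lower in every DA library, and its change of -2.01 ± 0.39 (SE; adjusted p = 0.00421) was kept in all 10 fits. Ang, which encodes the ribonuclease angiogenin, had -1.36 ± 0.33 (adjusted p = 0.0315), kept only without DA replicate 3 or WT replicate 5 (adjusted p up to 0.127 otherwise). Its locus overlaps Rnase4 on the same strand, which had 2408 counts beside 356 of Ang over all libraries, so that its level is uncertain. Nomo1, part of a protein complex of the endoplasmic reticulum, had -1.31 ± 0.32 (adjusted p = 0.0371) and was kept only without DA replicate 2 or WT replicate 3 (adjusted p up to 0.155 otherwise). The esterase homolog Iah1, the spliceosomal cyclophilin Ppil1 and the class I histocompatibility gene H2-T3 fell as well, and are named after their values were seen. Their log2 fold changes were -0.77 ± 0.19 (adjusted p = 0.044), -0.90 ± 0.23 (adjusted p = 0.0461) and -2.65 ± 0.65 (adjusted p = 0.0336). Iah1 was kept only without DA replicate 5 or WT replicate 3 or 4, Ppil1 only without DA replicate 4, and H2-T3 only without DA replicate 1 or 5 or WT replicate 1 or 3, with adjusted p up to 0.175 among them otherwise.

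Among the genes that rose in DA, Itch, an E3 ubiquitin ligase (mm10 chromosome 2, 155133509 to 155226855), had 250.1, 321, 239.9, 289 and 244 CPM in the DA libraries under GW, against 101, 76.1, 72.99, 113 and 69.1 CPM in the WT libraries under GW. Rep15, an effector of the trafficking protein Rab15, had 342, 461, 399, 492 and 392 CPM in the DA libraries under GW, against 123, 82.8, 129, 180.1 and 120.4 CPM in the WT libraries under GW. In both, every DA library was above every WT library, at 1.62 ± 0.32 (SE; adjusted p = 0.00409) and 1.71 ± 0.32 (adjusted p = 0.0027), 3.08-fold and 3.27-fold higher. The noncoding transcript AA465934 (mm10 chromosome 11, 83291699 to 83294632) had 75.03, 58.2, 105, 116 and 111 CPM in the DA libraries under GW, against 4.04, 4.48, 7.06, 2.47 and 0 CPM in the WT libraries under GW. It had few counts in WT and more in every DA library (4.61 ± 0.95, adjusted p = 0.00725), and the fold of so thin a WT group is imprecise. Hddc3, a phosphohydrolase that acts on the bacterial alarmone ppGpp and on NADPH, had 60.4, 53.2, 0, 64.4 and 50.8 CPM in the DA libraries under GW, against 0, 4.48, 0, 7.402 and 1.97 CPM in the WT libraries under GW. DA replicate 3 had no count while the other DA libraries were high (3.95 ± 0.85, adjusted p = 0.0121). These calls were kept in all 10 fits. In other settings Itch, Rep15 and AA465934 passed in 11 of 11 and Hddc3 in 7 of 10. Hddc3 did not pass in libraries 1 to 36 alone (edgeR, adjusted p = 0.417), without the columns with the suffix 2, or by limma-trend.

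Psca and Ly6e encode surface proteins of the Ly6 family anchored by a lipid. Psca had 52.1, 7.59, 70.3, 10.4 and 27.3 CPM in the DA libraries under GW, against 0, 2.24, 7.06, 2.47 and 1.97 CPM in the WT libraries under GW. DA libraries were above WT libraries but spread widely (3.55 ± 0.81, SE; adjusted p = 0.0198), and the call was kept only without DA replicate 2, 4 or 5 or WT replicate 3 (adjusted p up to 0.103 otherwise). Ly6e had 153 ± 28.4 CPM in DA and 79.9 ± 15.6 CPM in WT without overlap (0.93 ± 0.24, adjusted p = 0.0461), kept only without DA replicate 2 or 5 (adjusted p up to 0.165 otherwise). Cdk11b, a cyclin-dependent kinase, had 0.80 ± 0.20 (adjusted p = 0.0461), kept only without DA replicate 1 (adjusted p up to 0.206 otherwise). H2-Bl, annotated as a polymorphic pseudogene of the class I histocompatibility region, had 20.8, 20.3, 24.8, 29.1 and 13.7 CPM in DA and 0, 0, 0, 2.47 and 3.95 CPM in WT (3.78 ± 0.88, adjusted p = 0.0241) and lost its call without DA replicate 3 or 4 or WT replicate 1, 2 or 4 (adjusted p up to 0.0838). Of the other called pseudogenes, 5 were higher and 1 lower in DA. They share sequence with their parent genes, so their counts are uncertain, and pseudogenes as a whole took 1.90% to 2.21% of counts in DA and 1.59% to 1.91% in WT.

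The levels of the higher genes in the other groups follow as a description. Itch averaged 272 ± 174 CPM in A under GW (SD, n = 5), 264 ± 39.3 CPM in Veh_DA (n = 4), 216 ± 93.4 CPM in A in vehicle and 94.7 ± 17.1 CPM in D in vehicle (n = 5 each), against 107 ± 12.4 CPM in Veh_WT (n = 5). Rep15 had 365 ± 204, 395 ± 80.9, 289 ± 129 and 132 ± 38.8 CPM in these groups in the same order, against 157 ± 32.2 CPM in Veh_WT. AA465934 had 91.5 ± 80.1, 94.1 ± 28.3, 72.004 ± 70.4 and 6.23 ± 2.68 CPM, against 8.13 ± 2.35 CPM. The A libraries differed by the run of their library numbers, replicates 1 to 3 of each A group being numbered 1 to 36 and replicates 4 and 5 37 to 60. AA465934 had 149, 161, 139, 4.02 and 4.37 CPM in A under GW and 152, 134, 68.5, 1.85 and 3.66 CPM in A in vehicle. The first 3 values in each are from libraries 1 to 36. Itch, Rep15 and H2-Bl were likewise higher in each A library numbered 1 to 36 than in each numbered 37 to 60, in both treatments. H2-Bl was also high in D, with 37.04 ± 5.202 CPM in D in vehicle against 2.74 ± 2.84 CPM in Veh_WT.

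**Figure D4:**
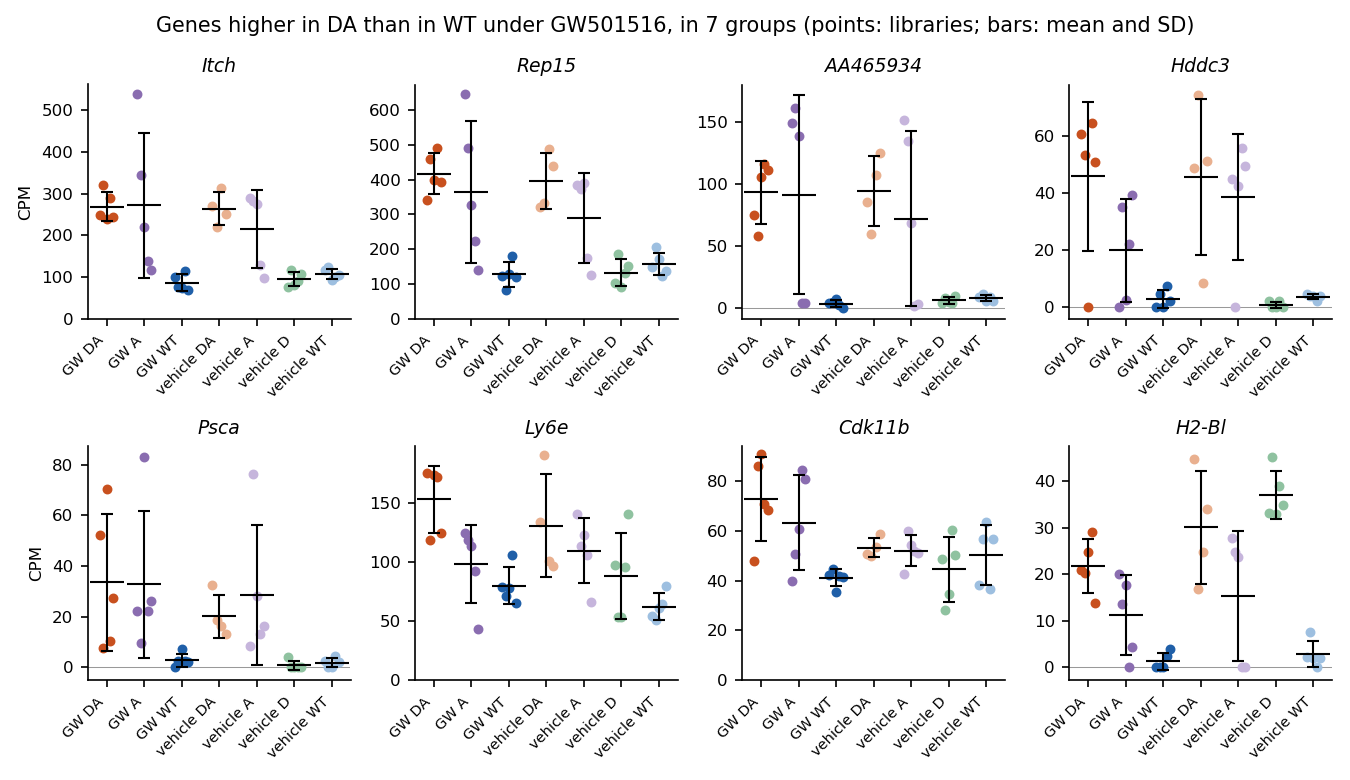
CPM per library for 8 genes called higher in DA than in WT under GW, with 1 panel per gene and 7 groups of treatment and genotype on the horizontal axis. Points are libraries and bars the mean and SD. The DA mean exceeds the WT mean with GW and in vehicle in every panel, by little for Cdk11b in vehicle, and the A libraries of AA465934 split into high ones, numbered 1 to 36, and low ones, numbered 37 to 60.

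Few cell type markers were called. No stem (10 measured), Paneth (10), goblet (8) or enteroendocrine (7) marker passed, with medians of -0.11, -0.02, -0.03 and -0.17, and none of 22 proliferation genes passed (median 0.07). Over all genes tested 0.874% were called, so 0 calls in lists this short is near the background. Olfm4, a stem cell marker, had 47.9 ± 13.9 CPM in DA and 60.8 ± 15.6 CPM in WT (SD, n = 5 each; -0.35 ± 0.30, SE; adjusted p = 0.81). Lgr5, the stem cell receptor, had 9 counts in DA and 1 in WT, a ratio of 8.72 with a 95% counting interval of 1.21 to 382. Ang4, a secreted ribonuclease of Paneth cells, had 208, 78.5, 118, 78.9 and 76.2 CPM in the DA libraries under GW, against 422, 347, 287, 363 and 247 CPM in the WT libraries under GW. The groups did not overlap and the DA libraries spread widely. Ang4 did not pass (-1.59 ± 0.44, adjusted p = 0.0876), and the reason was not tested. Ang4 passed in 4 of 11 other settings, among them the fit of only the groups compared (adjusted p = 0.000913) and libraries 37 to 60 alone (adjusted p = 4.47e-05).

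The regenerating lectins and antimicrobial genes, secreted by the epithelium against bacteria, were all lower in DA under GW, 5 of 5, and none passed. Their median was -0.84 under GW and -0.38 in vehicle. Reg3g had 29.9 ± 5.37 CPM in DA and 53.1 ± 9.22 CPM in WT (SD, n = 5 each) without overlap (-0.84 ± 0.26, SE; adjusted p = 0.165). Reg1 and Reg3a had -1.07 ± 0.38 (adjusted p = 0.268) and -1.51 ± 0.55 (adjusted p = 0.304). Markers of regenerative, fetal-like epithelium were higher in 8 of 8, with a median of 0.59 under GW and 0.65 in vehicle, and none passed. Among them Clu had 155 ± 43.1 CPM in DA and 76.9 ± 29.7 CPM in WT (1.003 ± 0.44, adjusted p = 0.474), and Msln had 0.81 ± 0.37 (adjusted p = 0.495). Without a filter on low counts Clu, Msln and Reg1 passed (adjusted p = 9.11e-05, 0.0344 and 2.54e-07), and Clu also in libraries 37 to 60 alone (adjusted p = 0.0246). Cd44, a surface receptor of crypt cells, had 32.8 ± 2.68 CPM in DA and 19.2 ± 7.34 CPM in WT and did not pass (0.77 ± 0.37, adjusted p = 0.547). Of the 69 ribosomal proteins 57 were higher under GW with a median of 0.08, and 0 passed. In vehicle 9 of the 69 were higher, with a median of -0.05.

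The vehicle pair shows what the genotypes differed in without the agonist. In vehicle, 14 of 4691 genes were called (0.298%), 10 higher and 4 lower in DA, and 9 of the 14 were also called under GW. Of these 9, Acot1 was higher in DA in vehicle and lower under GW, and the others had the same sign in both. The 13 genes higher under GW were higher in vehicle too, with medians of 3.69 under GW and 3.38 in vehicle. Of the 28 lower genes 21 had the same sign in vehicle, with medians of -1.14 under GW and -0.18 in vehicle. These genes were chosen by their values under GW, which favours the medians there. The vehicle count depended on single libraries. Leaving out 1 of them gave 0 calls for Veh_WT replicate 2, 3, 4 or 5, 1 for Veh_WT replicate 1 or Veh_DA replicate 2, 3 for Veh_DA replicate 1, 6 for Veh_DA replicate 3 and 5 for Veh_DA replicate 4. Among the lower genes, Hadhb in vehicle had 130.4 ± 20.1 CPM in Veh_DA (n = 4) and 125 ± 15.95 CPM in Veh_WT (n = 5). Crot had 42.04 ± 6.66 CPM in Veh_DA and 48.2 ± 14.6 CPM in Veh_WT, and Aldh3a2 had 24.9 ± 2.53 and 24.4 ± 4.32 CPM in the same groups. Other lower genes were lower in vehicle too, without passing there. Their log2 fold changes in vehicle were -0.71 for Iah1, -0.65 for Ppil1, -0.78 for Nomo1, -1.74 for H2-T3 and -0.90 for Slfn9.

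**Figure D5:**
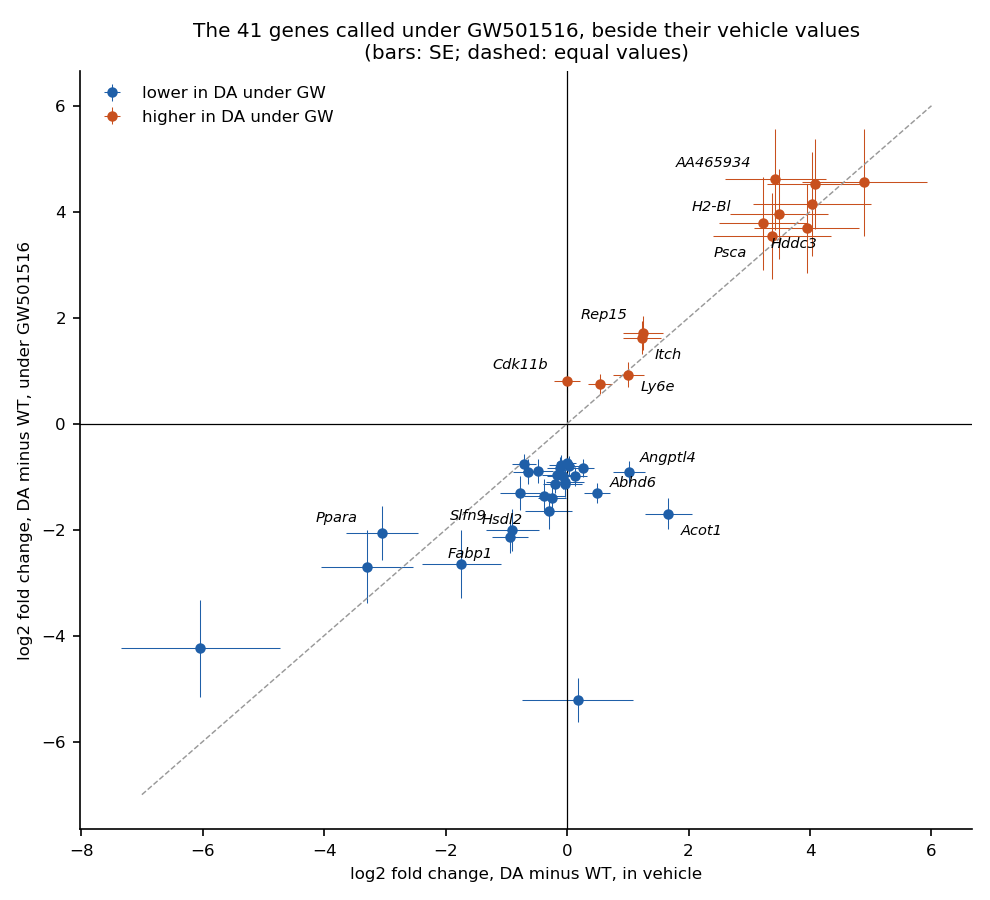
Log2 fold change of DA over WT under GW on the vertical axis against the same in vehicle on the horizontal axis, for the 41 genes called under GW. Bars are SE and the dashed line marks equal values. Genes higher in DA lie to the right of 0, with AA465934 at 3.43 in vehicle and 4.61 under GW and Cdk11b next to 0 in vehicle, many lower genes lie near 0 in vehicle, and Acot1, Angptl4 and Abhd6 lie to the right of 0.

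Whether the genotype difference itself changed with the agonist was tested as an interaction, (DA minus WT under GW) minus (DA minus WT in vehicle). It passed for 4 of 4691 genes (0.0853%), all with a lower value under GW, and 192 genes had an unadjusted p under 0.05. Acot1 had 28.5, 24.1, 49.3 and 18.9 CPM in Veh_DA, against 13.5, 5.67, 3.96, 6.49 and 15.2 CPM in Veh_WT, so that in vehicle it was higher in DA (1.67 ± 0.39, SE; adjusted p = 0.0408), a call that held only without Veh_DA replicate 4 among 9 fits. The interaction was -3.37 ± 0.49 (adjusted p = 0.000195). Angptl4 had 50.8 ± 4.46 CPM in Veh_DA and 24.01 ± 7.83 CPM in Veh_WT, a difference of 1.02 ± 0.26 that did not pass (adjusted p = 0.0759), and an interaction of -1.94 ± 0.33 (adjusted p = 0.00168). Abhd6 had 62.7 ± 9.32 CPM in Veh_DA and 43.2 ± 16.2 CPM in Veh_WT and an interaction of -1.80 ± 0.29 (adjusted p = 0.000618). These 3 interactions were kept in all 19 fits that left out 1 library.

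Reg4, a secreted lectin of enteroendocrine and goblet cells, was the other gene with an interaction. It had 163, 86.1, 114, 141 and 117 CPM in the DA libraries under GW, against 115, 143, 186, 219.6 and 184 CPM in the WT libraries under GW, which overlapped (-0.46 ± 0.27, SE; adjusted p = 0.669). In vehicle it had 242, 148, 90.5 and 138 CPM in Veh_DA, against 60.7, 52.95, 35.7, 38.9 and 66.4 CPM in Veh_WT, and was higher in DA (1.53 ± 0.31, adjusted p = 0.0316). That vehicle call was kept only without Veh_DA replicate 3 or 4. The interaction of -1.995 ± 0.42 (adjusted p = 0.0332) was kept in 8 of 19 fits, which were those without Veh_DA replicate 2, 3 or 4, Veh_WT replicate 2 or 5, GW_DA replicate 1, or GW_WT replicate 1 or 2, with adjusted p up to 0.158 otherwise.

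The Ppara-null single knockout under GW, which keeps an unmodified Ppard by its label, gives a further comparison. Against A, 6 of 4691 genes fell in DA (0.128%) and 0 rose, with 211 genes at an unadjusted p under 0.05. They included Fabp1, with 8786 ± 3640.1 CPM in DA and 23035 ± 4263 CPM in A under GW (SD, n = 5 each; log2 fold change -1.39 ± 0.28, SE; adjusted p = 0.0201). Abhd6 had 52.5 ± 9.34 CPM in DA and 101 ± 14.5 CPM in A (-0.97 ± 0.19, adjusted p = 0.0201), Eci2 73.2 ± 10.7 and 130.2 ± 22.4 CPM (-0.84 ± 0.17, adjusted p = 0.0201) and Crot 39.7 ± 6.303 and 76.5 ± 20.8 CPM (-0.96 ± 0.21, adjusted p = 0.0456). In these 4 genes all DA libraries were below all A libraries, which was so in 0.32% of genes tested. Each of the 4 was kept in 3 of 10 fits, with adjusted p up to 0.32 otherwise: Fabp1, Abhd6 and Crot without DA replicate 2 or A replicate 1 or 4, and Eci2 without DA replicate 2 or A replicate 2 or 5. Hadhb missed the threshold (-0.59 ± 0.13, adjusted p = 0.0539). The comparisons with WT and with A share the DA libraries. The 13 genes higher in DA than in WT did not pass against A over all libraries, nor in libraries 1 to 36. In libraries 37 to 60, where the A levels were low, 3 of the 13 passed, AA465934 (4.69, adjusted p = 9.94e-06), Itch (1.06, adjusted p = 0.0171) and Rep15 (1.29, adjusted p = 0.00324), against -0.93, -0.47 and -0.31 for these genes in libraries 1 to 36. Within these runs, libraries 1 to 36 before 37 to 60, DA minus A was -1.06 and -2.06 for Fabp1 and -0.93 and -1.02 for Abhd6. It was -0.79 and -0.91 for Eci2 and -0.70 and -1.34 for Crot. The count of 6 was 1 without DA replicate 1, 3, 4 or 5 or A replicate 3, and 3 without A replicate 2 or 5.

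Some called genes lay on the chromosomes of the receptors. On chromosome 15, which holds Ppara, 3 of 173 tested genes were called (1.73%), and beside Ppara these were Psca and Ly6e, 11.0 and 10.8 Mb from it. On chromosome 17, which holds Ppard, 5 of 222 were called (2.25%): Ppil1 at 1.02 Mb, a pseudogene at 2.37 Mb, Angptl4 at 5.54 Mb, H2-Bl at 7.85 Mb and H2-T3 at 7.95 Mb. On all other chromosomes it was 33 of 4296 (0.768%).

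Libraries numbered 1 to 36 and 37 to 60 were also fitted apart. Within these runs, the log2 fold changes were -1.92 and -2.64 for Fabp1, -1.55 and -1.86 for Acot1, -1.39 and -1.14 for Abhd6, -1.19 and -1.04 for Eci2, -1.16 and -1.75 for Crot and -0.83 and -0.63 for Hadhb. They were -0.91 and -0.91 for Angptl4, 1.65 and 1.596 for Itch and 1.81 and 1.603 for Rep15. By edgeR's adjusted p in each run alone, Fabp1, Abhd6, Crot, Itch and Rep15 passed in both. Acot1 missed the threshold in the first (adjusted p = 0.126), and Eci2 and Hadhb in the second (adjusted p = 0.0825 and 0.2). Angptl4 missed it in both (adjusted p = 0.383 and 0.221), as did Hsdl2, Aldh3a2 and Slfn9. Of the 28 lower genes 26 had the same sign in both runs and 2, Ppara and H2-T3, had too few counts in the first to be fitted, and all 13 higher genes had the same sign in both. Taken alone, the first run, with 3 libraries a group, called 20 genes and the second, with 2 a group, called 43, while both together with the run as a term called 58, including all 41.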

How the data were processed

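The authors deposited a table of whole-number counts by Ensembl identifier and another of log2 values. The submitters' processing notes name the build mm10, edgeR 3.26.8, R 3.6.2 and Salmon 1.1.0. How molecular identifiers, filters and annotation were handled is not given in the sources used here. By its values, the deposited log2 table is log2 of CPM plus 1. It served only as a check: 88.5% of its nonzero values lay within 0.01 of a whole count when turned back, and the largest difference from the deposited count was 1.47 counts. The source of these differences was not tested. CPM here is a count divided by the library total, scaled to 1e+06. Symbols and positions came from GENCODE M21 (mm10), where 54179 of 54352 identifiers had a symbol.

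Of 57 columns, 34 were used and 23 left out, 19 with the letters KD and the 4 named GW in D, since 1 sample of that title had a conflicting genotype label. Column names gave each library its treatment and genotype, and so its group. They carry no replicate number, so replicates are numbered in column order. No 2 libraries within GW_DA or GW_WT were copies, as each pair's chi-square per degree of freedom was at least 2.61.

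Genes were filtered with edgeR's filterByExpr by group, scaled by TMM and fitted in 1 model over 7 groups by glmQLFit and glmQLFTest of edgeR 4.0.16 (R 4.3.3), with Benjamini-Hochberg adjustment over 4691 genes and a threshold of 0.05. SE is the log2 fold change over the root of F. The method was tested on simulated data with changed genes, of which 12.5% at 1.5-fold, 44% at 2-fold and 100% at 3-fold were called. There 4524 genes were fitted, and 10 of the 137 calls were false. Whether recovery is the same in the libraries used here was not tested. Other settings used limma 3.58.1 and DESeq2 1.42.0. Intervals for thin genes are exact at 95%. Depth per library was 353347 to 577557 over the 34 libraries, and intervals cover counting error only.

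The named genes are up to 15 of the largest increases and decreases with an average log2 CPM of at least 4, without predicted genes and pseudogenes, then fixed reference genes and up to 5 members per list. Members and lists were chosen with earlier results of these data known. A called gene that is counted is not reported here.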

Additional observations from a re-analysis of the deposited data

Results flagged for a closer look

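The genotype difference depended on the agonist for 4 genes by edgeR's interaction test, with the difference under GW minus that in vehicle being -3.37 for Acot1 (adjusted p = 0.000195), -1.80 for Abhd6 (adjusted p = 0.000618), -1.94 for Angptl4 (adjusted p = 0.00168) and -1.995 for Reg4 (adjusted p = 0.0332). For Acot1, Abhd6 and Angptl4 the sign of DA minus WT was negative under GW and positive in vehicle.

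Single libraries stood apart from the other 4 of their group in 11 of 114 sets of 5 libraries looked at, by Dixon's ratio at 0.71, where chance flags about 1 in 20. In DA under GW these were replicate 1 for Slfn9 (12.5 CPM), replicate 3 for Ang (26.9 CPM), Pxmp4 (10.3 CPM) and Hddc3 (0 CPM, the others having 50.8 to 64.4 CPM), and replicate 4 for Ech1 (159.9 CPM). In WT under GW they were replicate 1 for Apoc2 (329 CPM), replicate 3 for Hadha (122 CPM, the others having 237 to 280.3 CPM) and Acadvl (40.03 CPM), replicate 4 for Cd44 (32.1 CPM), and replicate 5 for Slc25a20 (92.8 CPM) and Reg3a (45.4 CPM).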

How the results depend on the processing

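The 41 genes that differed between DA and WT under GW became 110 without a filter on low counts (51 higher, 59 lower), 20 in libraries 1 to 36 alone (9 higher, 11 lower) and 27 without the columns with the suffix 2, and 20 to 46 when 1 library was left out. They were 58 with the library-number run as a term, 51 with a term for library sex, chosen after seeing the data, and 43 in libraries 37 to 60 alone, where the split turned to 26 higher and 17 lower and 13 of the 41 were shared. limma-trend called 29, of which 6 were higher, and DESeq2 40. The 14 vehicle calls became 84 without a filter, 1 without the columns with the suffix 2, 0 by limma-trend, and 0 to 6 when 1 library was left out. The 4 interactions became 20 without a filter, 2 in libraries 1 to 36, 0 in libraries 37 to 60, 7 by DESeq2, and 3 to 5 when 1 library was left out. The 6 genes against A became 24 without a filter, 1 in libraries 1 to 36, 35 in libraries 37 to 60, 1 without the columns with the suffix 2, and 1 to 8 when 1 library was left out. Fewer libraries enter the fits of single runs, and library sex, run and suffix overlap in these groups. Beyond this the cause was not tested. Of 615 comparisons of single named genes with other settings, 515 kept direction and side of the threshold, 76 lost the call and 24 gained it, and 0 turned direction with a call. In these settings the call was kept in 4 of 8 for Ppara, 4 of 10 for Nomo1, 5 of 11 for Iah1 and Cdk11b, and 6 of 11 for Abcd3 and Rbp2. No paired analysis was possible because the columns carry no replicate numbers, and a fit with all 8 groups was not run because 1 of the columns named GW in D could not be told apart. Depth limits genes with few counts, among them Ppard, Pdk4 and Lgr5.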
